A study of Mus musculus with 59 samples.

Results

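The 10 soleus libraries of the series, of 59 in all, compared mice on a hydroxycitrate diet with mice on the same chow without it. The members were every library titled as soleus in the deposited soleus table, 5 from HC mice and 5 from STD mice. Per the study's methods, the mice were wild-type C57BL/6 males that received standard chow with 7.5 g of potassium hydroxycitrate (HC) per kg (HC group) or standard chow alone (STD group) from 20 weeks of age, and both groups were euthanized at 41 weeks after 16 h of fasting. The labels give the strain, the tissue and the diet, but neither the age nor which animal a library came from, so p values measure only the spread between these libraries, which may be technical. The other libraries came from liver of mice on these diets, AML12 hepatocytes and injured gastrocnemius.

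The soleus is a small postural muscle of slow oxidative and fast oxidative fibres, and a piece of it also holds nerve branches wrapped in myelin by Schwann cells, connective tissue fibroblasts, vessels and resident macrophages. HC is a competitive inhibitor of ATP citrate lyase (ACLY), the cytosolic enzyme that splits citrate into acetyl-CoA and oxaloacetate, and so links mitochondrial fuel use to the synthesis of lipids and to protein acetylation. The comparison asked which transcripts differed in this muscle after months of dietary HC.

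RNA-seq values were available for 24972 genes, of which 17580 had a value above 0 in at least 1 library. The values were gene counts normalized by the median of ratios, and the depth estimated from them was 8930000 to 11200000 reads per library. A gene was tested when its normalized value reached 10 in at least 5 libraries, which left 12067 genes. As a check of the tissue, Myh7, the slow myosin heavy chain, had values of 133241, 135005, 113076, 133930 and 113566 in HC libraries 1 to 5, against 132515, 157996, 123443, 148354 and 95572 in STD libraries 1 to 5. Myh2, the fast oxidative myosin heavy chain, had values of 107657, 146490, 157614, 145929 and 147376 in HC soleus, against 132965, 104738, 131322, 152052 and 140373 in STD soleus. Both myosins that define the muscle were abundant in all 10 libraries.

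Some libraries stood apart in ways the diet labels do not describe. Transcripts made by hepatocytes were found in all libraries, with a summed value of 20 such genes of 1698, 85.1, 122, 56.2 and 1520 in HC libraries 1 to 5, against 2910, 489, 858, 498 and 880.5 in STD libraries 1 to 5. They made up 15 of the 30 genes with the most positive loadings on the first principal component (31.6% of the variance). Hepatocyte genes outside the 20, such as Mup20, were also among the 30, and the negative end was not ranked. On this component HC library 1 (39.4) and STD library 1 (24.4) lay farthest from HC libraries 2, 3 and 4 (-26.4, -19.9 and -28.7). Myh4, the fast glycolytic myosin that is typical of neighbouring muscles, had values of 845, 12995, 714, 1270 and 396 in HC libraries 1 to 5, against 456, 588, 28708, 10415 and 367 in STD libraries 1 to 5, so HC library 2 and STD libraries 3 and 4 were far above the rest. The part of these differences in the results below was not tested, and results without the libraries concerned are given where they move. In bulk tissue, more cells of a type and more RNA per cell cannot be told apart.

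No gene passed an adjusted p of 0.05 between HC and STD soleus (limma with Benjamini-Hochberg adjustment over 12067 genes, smallest adjusted p = 0.654). At an unadjusted p under 0.05 there were 609 genes, 5.05% of those tested, where an even spread of p values gives 603. Of these, 367 had a higher mean in HC soleus (3.04% of genes tested) and 242 a lower mean (2.01%). At the threshold on p and fold change that the study's methods state, applied here to unadjusted limma p values with a log2 fold change of at least 1 in size, 33 genes were higher in HC soleus (0.273%) and 6 were lower (0.0497%). In 69 genes all 5 HC libraries were above all 5 STD libraries (0.572%), and in 64 all were below (0.53%). The median log2 fold change over all genes was -0.01, and 45.7% of genes had a higher mean log2 value in HC soleus. With limma's library weights 5 genes passed, all higher in HC soleus (Arid5a, Dnajb1, Gas7, Nr4a1 and Siah2). In that fit 17% of all genes had an unadjusted p under 0.05, against 5.05% without weights. Without HC library 5, 1 gene passed, Mettl21c (limma adjusted p = 0.00831). Without HC libraries 1 and 5 and STD library 1, the 3 with over 1500 of the summed liver genes, 21 genes were higher and 6 lower (smallest limma adjusted p = 0.00688), a choice of libraries made after the data were seen. Among the 21 were 3 collagens (Col4a1, Col4a2 and Col6a3). For each of these, the omitted HC library 1 was the lowest HC library and the omitted STD library 1 the lowest STD library. Nr4a1, Btg2, Fosb and Dnajb1, of the immediate early and chaperone lists below, were also among the 21. The HC libraries kept, 2, 3 and 4, were the highest of all 10 for both lists, so these passes are not separate from the choice either. The kept groups were also split by the summed liver genes (56.2 to 122 in HC soleus, against 489 to 880.5 in STD soleus). Among the 6 were Alb and Apoa2, members of the liver list by which the libraries were left out, and Mup20, a hepatocyte gene outside that list. The pass of these liver transcripts is therefore not separate from that choice. The genes and lists below are described by their values over all 10 libraries.

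**Figure D1:**
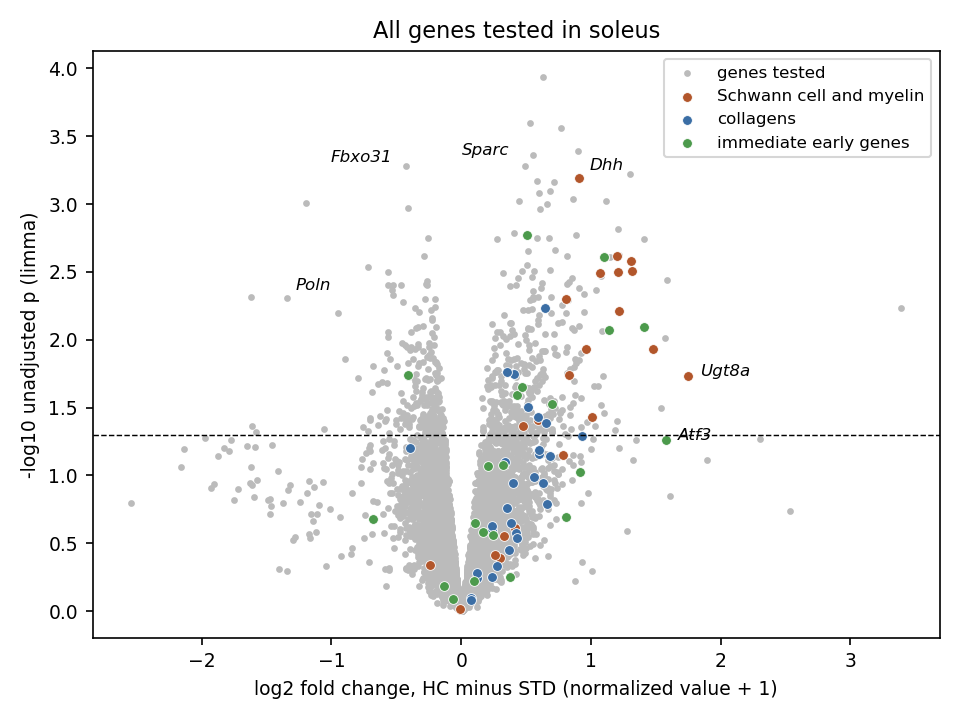
Log2 fold change (HC minus STD soleus, x axis) against the unadjusted limma p on a -log10 scale (y axis) for the 12067 genes tested, 1 point per gene, with 3 gene lists in colour and a dashed line at the unadjusted threshold of 0.05. Of 23 Schwann cell and myelin genes, 16 lie above the line on the right side and 0 on the left, against 3.04% and 2.01% of all genes.

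On the higher side, the list with the largest median was that of Schwann cells and myelin. Of 28 listed genes 23 were tested, 21 of them with a higher mean in HC soleus, and 16 had an unadjusted p under 0.05 with a higher mean, against 3.04% of all genes. None had an unadjusted p under 0.05 with a lower mean. The median log2 fold change of the 23 genes was 0.91, against -0.01 for all genes. In 5 genes all HC libraries were above all STD libraries, against 0.572% of all genes. The list supplied 10 of the 33 genes that were higher at the study's threshold.

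The myelin sheath of peripheral axons is built from a few abundant proteins. Mbp, which encodes a protein that compacts the cytoplasmic faces of the sheath, had normalized values of 1116, 476, 527, 726 and 1872 in HC libraries 1 to 5, against 383, 259.9, 316, 461 and 411 in STD libraries 1 to 5. HC libraries 1 and 5 were the highest, and the groups did not overlap. The log2 fold change of Mbp was 1.20 ± 0.32 (standard error), with a limma adjusted p = 0.746. Pmp22 (chromosome 11, 63128982 to 63159547 of GRCm38), a tetraspan myelin protein whose gene dose is altered in inherited neuropathies, had values of 1129, 631, 552, 738 and 1627 in HC soleus, against 485, 531, 489, 519 and 437 in STD soleus. The lowest HC value of Pmp22 was above the highest STD value, and its log2 fold change was 0.81 ± 0.24 (adjusted p = 0.746).

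Scaffold and signalling genes of the same cells also had higher means in HC soleus. Prx (chromosome 7, 27499324 to 27520214), which encodes periaxin, a scaffold that links the Schwann cell membrane to the basal lamina, had values of 515, 170.2, 207, 293 and 763 in HC libraries 1 to 5, against 133, 111, 110.0, 203 and 128 in STD libraries 1 to 5. It was again highest in HC libraries 5 and 1, overlapped with STD library 4 and had a log2 fold change of 1.31 ± 0.35 (adjusted p = 0.746). Dhh, the desert hedgehog ligand that Schwann cells secrete to organise the nerve sheath, had values of 44.4, 39.7, 28.2, 34.2 and 51.4 in HC soleus, against 23.4, 16.8, 16.9, 19.7 and 25.4 in STD soleus. Its groups did not overlap, and its log2 fold change was 0.91 ± 0.20 (adjusted p = 0.654). Of the transcription factors, Sox10, which maintains the Schwann cell lineage, had a log2 fold change of 0.97 ± 0.33 (adjusted p = 0.886), with HC values of 87.2, 32.4, 28.2, 49.2 and 98.3 and STD values of 22.4, 32.3, 19.4, 32.3 and 27.4. Egr2, the zinc finger factor that drives myelin genes, had 21.1, 35.9, 23.6, 35.3 and 43.2 in HC soleus, against 10.6, 12.3, 9.85, 14.1 and 27 in STD soleus, with only STD library 5 reaching the HC range (adjusted p = 0.746). Egr2 is also an immediate early gene, and its highest STD value was in STD library 5. Mag, a membrane protein at the inner face of the sheath, did not reach an unadjusted p of 0.05 (0.79 ± 0.40, adjusted p = 0.986). Prx, Sox10 and Mag were picked with their values in view.

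**Figure D2:**
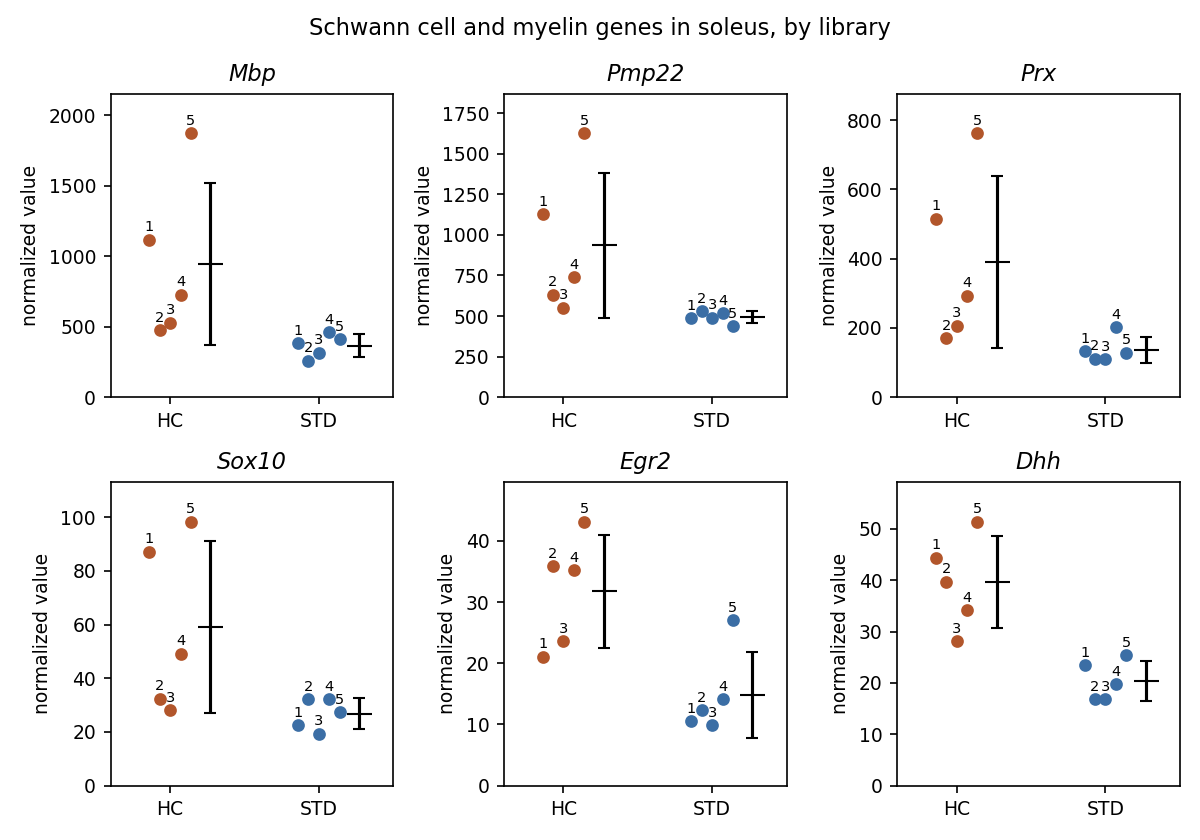
Normalized values (y axis, from 0) of 6 Schwann cell and myelin genes, 1 point per soleus library with its replicate number, HC left and STD right, the bar being their mean and the whisker 1 SD (n = 5). HC libraries 1 and 5 are the highest for Mbp, Pmp22, Prx, Sox10 and Dhh, and for Egr2 HC library 5 is the highest and HC library 1 the lowest of the HC libraries.

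The level of the whole list differed between HC libraries more than between STD libraries. Its summed normalized value was 5899, 2677, 2745, 3661 and 8714 in HC libraries 1 to 5, against 2166, 2097, 1985, 2621 and 2129 in STD libraries 1 to 5. All 5 HC sums were above all 5 STD sums, by a narrow margin for HC library 2, and the HC sums of libraries 1 and 5 were set apart. With HC library 5 left out the median log2 fold change of the list was 0.62, with 12 genes at an unadjusted p under 0.05 (5.65% of all genes in that fit). With HC libraries 1 and 5 and STD library 1 left out, the 3 libraries with over 1500 of the summed liver genes, it was 0.37, with 8 genes, and 12.3% of all genes in that fit were at an unadjusted p under 0.05, against 5.05% with all libraries. In 19 of the 33 genes that were higher at the study's threshold, the largest of the 10 values was that of HC library 5.

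Genes of axons themselves were at or near 0; the neuronal cell bodies that transcribe them lie outside the muscle. Nefl, Nefm and Nefh, which encode the neurofilaments, reached at most 1.94, 2.91 and 2.29 in any HC library, against 1.06, 3.37 and 0 in any STD library. Of 16 genes of axons and the nerve sheath, 4 were tested and all 4 had a higher mean in HC soleus (median log2 fold change 0.44). Itgb4, the laminin receptor subunit of Schwann and perineurial cells, had values of 136, 156, 153, 180.4 and 201 in HC soleus, against 91.8, 93.7, 95.5, 130.5 and 131 in STD soleus. Its groups did not overlap, with a log2 fold change of 0.61 ± 0.15 (adjusted p = 0.654). Cldn1, a tight junction protein of the perineurium, had 0.48 ± 0.26 (adjusted p = 0.986), and the glucose transporter Slc2a1 had 0.33 ± 0.29 (adjusted p = 0.999), with its highest value, 615, in STD library 5. Of 8 tested genes of the muscle spindle, 1 had an unadjusted p under 0.05 with a higher mean, against 3.04% of all genes. This was Egr3, a factor of spindle formation that is also an immediate early gene (1.41 ± 0.45, adjusted p = 0.833). It had values of 36.5, 31.3, 25.4, 41.3 and 38.4 in HC soleus, against 3.2, 15.1, 7.66, 31.8 and 19.8 in STD soleus.

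To show the sequence in front of genes of this group, promoter windows of 300 bases (250 before to 50 after a start site) were read from RefSeq on GRCm38.p6. Of the 16 Schwann cell and myelin genes with an unadjusted p under 0.05, 11 had a window, 20 windows in all. The core letters of SOX factor sites, ACAAAG and ACAATG, were searched on both strands. One window of the 20 held a match, that of Cnp, an enzyme of myelin membranes (log2 fold change 0.48 ± 0.21, adjusted p = 0.972), against 28.6% of all 32851 windows. Some of the 20 windows overlap, such as those of Egr2, so they are not separate sequences. By gene, 1 of 11 held a match, and the share over all genes was not counted. No match says only that these letters are not in the window. The Cnp window lies on the plus strand at chr11:100574689-100574988, the match in capitals starting 167 bases before the start site, and the Prx window on the plus strand at chr7:27499074-27499373, with no match.
Cnp promoter: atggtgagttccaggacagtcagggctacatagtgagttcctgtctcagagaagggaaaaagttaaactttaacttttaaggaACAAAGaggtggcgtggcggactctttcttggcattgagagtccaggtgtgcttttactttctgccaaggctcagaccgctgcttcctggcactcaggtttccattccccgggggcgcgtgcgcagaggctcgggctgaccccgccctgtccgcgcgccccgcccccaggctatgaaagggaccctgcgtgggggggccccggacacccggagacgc
Prx promoter: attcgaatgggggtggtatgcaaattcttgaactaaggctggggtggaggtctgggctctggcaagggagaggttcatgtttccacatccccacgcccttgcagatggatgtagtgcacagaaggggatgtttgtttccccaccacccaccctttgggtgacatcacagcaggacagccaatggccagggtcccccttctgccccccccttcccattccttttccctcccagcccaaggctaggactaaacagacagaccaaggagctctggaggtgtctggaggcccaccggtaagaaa

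Genes of the extracellular matrix had higher means in HC soleus almost throughout, by small amounts. Of 29 collagen genes tested, 28 had a higher mean (median log2 fold change 0.40) and 6 of these an unadjusted p under 0.05. Of 38 matrix glycoproteins and remodelling genes, 37 had a higher mean (median 0.29) and 7 an unadjusted p under 0.05. Over all genes 45.7% had a higher mean, and 3.04% had a higher mean with an unadjusted p under 0.05. Sparc (chromosome 11, 55394500 to 55423183), which encodes a secreted collagen-binding protein of basement membranes, had values of 2690, 2677, 2677, 3274 and 3690 in HC libraries 1 to 5, against 1765, 2252, 2172, 2256 and 2187 in STD libraries 1 to 5. In the collagen and matrix lists it was the 1 gene with no overlap between the groups, with a log2 fold change of 0.49 ± 0.11 (adjusted p = 0.654). Thbs2, a matricellular thrombospondin, had values of 265, 346, 349, 420.0 and 286 in HC soleus, against 202, 181, 206, 289 and 266 in STD soleus and overlapped between the groups (0.54 ± 0.15, adjusted p = 0.746). Timp3, an inhibitor of matrix proteases and an abundant member, was nearly equal in the group means (0.03 ± 0.19, adjusted p = 0.999).

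Among the collagens, Col15a1, a collagen of the zone under basement membranes, had values of 164, 299, 244, 354 and 278 in HC soleus, against 116, 194, 160.5, 185 and 184 in STD soleus and a log2 fold change of 0.65 ± 0.20 (adjusted p = 0.788). The adjacent genes Col4a1 and Col4a2, which encode the chains of the main basement membrane collagen, had log2 fold changes of 0.40 ± 0.15 (adjusted p = 0.915) and 0.36 ± 0.13 (adjusted p = 0.915). Col4a1 had values of 1372, 2572, 2213, 2636 and 2074 in HC libraries 1 to 5, against 1449, 1722, 1574, 1583 and 1688 in STD libraries 1 to 5. HC library 1 was the lowest of all 10 libraries for Col4a1, and the other 4 HC libraries were above all STD libraries. With 1 library left out, the genes at an unadjusted p under 0.05 ranged between 2 collagens and 3 matrix genes without HC library 4 (3.44% of all genes in that fit) and 16 collagens and 23 matrix genes without HC library 1 (12.9% of all genes). The summed collagen level was 5824, 10261, 9421, 11607 and 16097 in HC libraries 1 to 5, against 5758, 7696, 7423, 9191 and 6569 in STD libraries 1 to 5. The fibroblast list followed the same direction, with a higher mean in 14 of 14 genes tested (median 0.25), as did the tendon list, with 9 of 9 (median 0.48). Of these, 2 fibroblast genes and 0 tendon genes had an unadjusted p under 0.05, against 3.04% of all genes. Both lists share members with the collagen and matrix lists (Col15a1, Dcn and Lum, and Fmod and Thbs4), so they are not separate from them.

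Tgfb2, a ligand that stimulates matrix production and that the study's text names, had values of 238, 243, 246, 255 and 226 in HC libraries 1 to 5, against 186, 224, 232, 196 and 174 in STD libraries 1 to 5. Its means were 242 ± 10.7 in HC soleus and 202 ± 24.8 in STD soleus (SD, n = 5 each), a log2 fold change of 0.26 ± 0.10. The lowest HC value lay below the highest STD value, and the limma adjusted p = 0.915. Over the whole TGF-beta and BMP list, Tgfb2 included, 17 of 28 genes had a higher mean, with a median of 0.02. Acvr2b, a receptor for myostatin and activins, was lower in the mean (-0.39 ± 0.16, adjusted p = 0.972). The abundant members Ltbp4, which stores latent TGF-beta in the matrix, and Bmpr2, a BMP receptor, had 0.10 ± 0.12 (adjusted p = 0.999) and -0.05 ± 0.15 (adjusted p = 0.999). Of 15 wound and injury genes 13 had a higher mean (median 0.22) and 1 of these an unadjusted p under 0.05, against 3.04% of all genes.

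**Figure D3:**
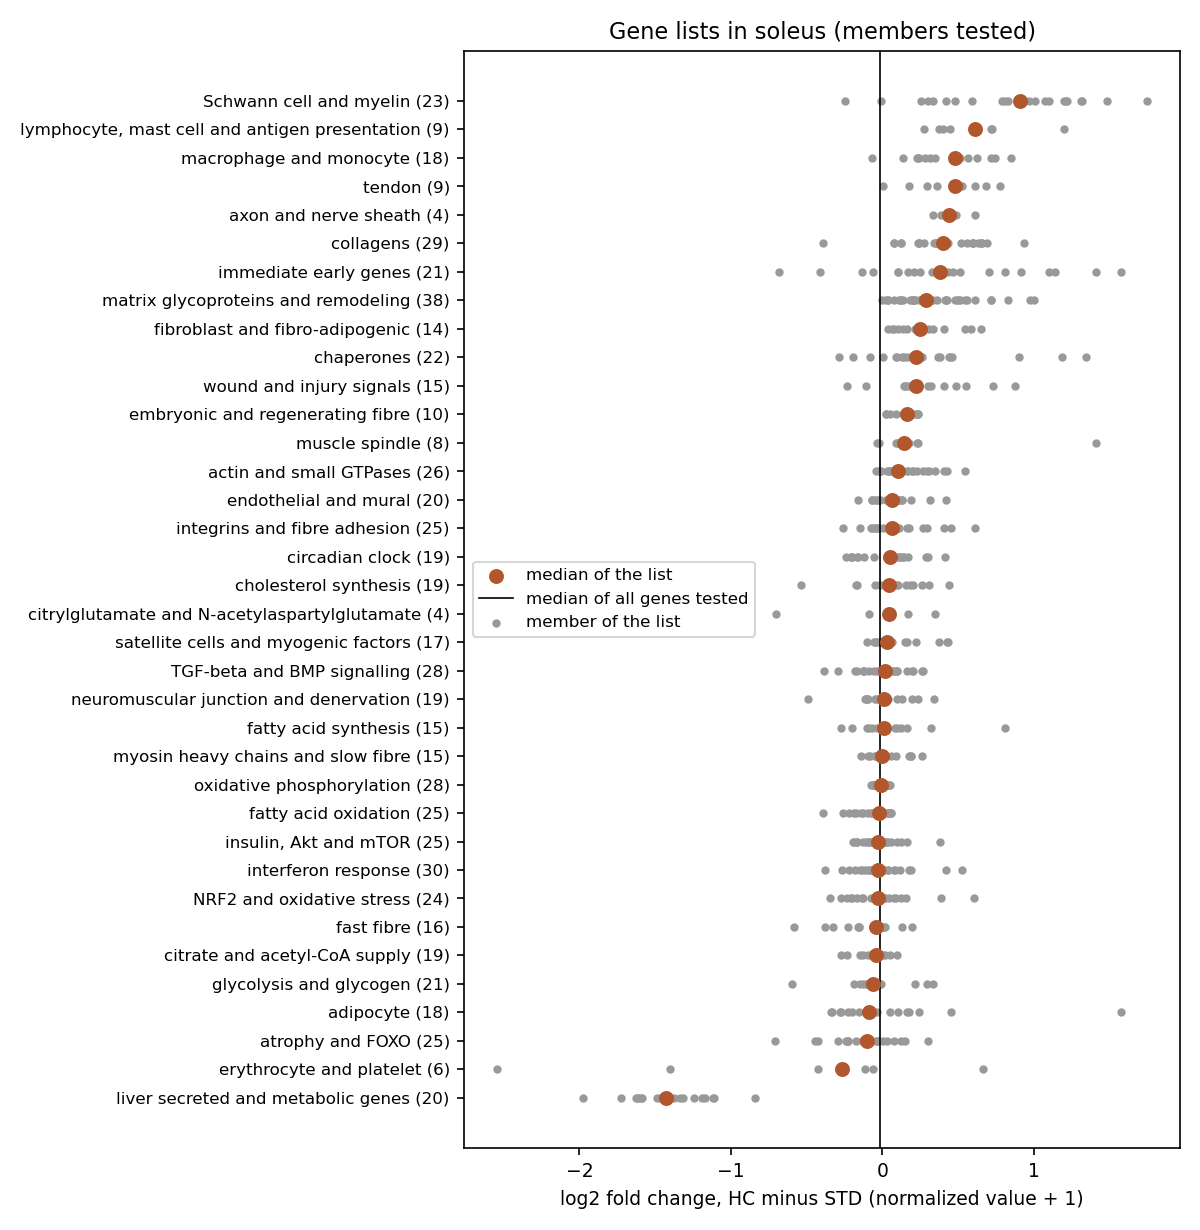
Log2 fold change (HC minus STD soleus, x axis) of the members tested in each gene list (grey points, 1 row per list with the number tested) and the median of the list (large points), with a line at the median of all genes. The Schwann cell and myelin median (0.91) lies farthest to the right and that of the liver genes (-1.43) farthest to the left.

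Immediate early genes, which are transcribed within minutes of a stimulus, were higher in the mean in 17 of 21 cases (median 0.38). Of the 21, 7 had an unadjusted p under 0.05 with a higher mean and 1 with a lower mean, against 3.04% and 2.01% of all genes. The list was highest in HC libraries 2, 3 and 4. Atf3, a stress-induced transcription factor, had values of 502, 6248, 5530, 4853 and 919.8 in HC libraries 1 to 5, against 941, 749, 519.7, 296 and 3014 in STD libraries 1 to 5. HC libraries 2, 3 and 4 were above every STD library, HC libraries 1 and 5 lay within the STD range, and the log2 fold change was 1.58 ± 0.75 (adjusted p = 0.979). Nr4a1, a nuclear receptor induced by contraction and adrenergic signals, had values of 1779, 2580, 2426, 2537 and 1693 in HC soleus, against 1527, 1619, 1359, 1403 and 1739 in STD soleus. Its log2 fold change was 0.51 ± 0.13 (adjusted p = 0.746), and HC library 5 was below STD library 5. Jun, the most abundant member after Atf3, had a log2 fold change of 0.10 ± 0.08 (adjusted p = 0.999).

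Chaperone genes showed the same split of libraries. Of 22 genes 19 had a higher mean (median 0.22). At an unadjusted p under 0.05, 3 were higher and 1 lower, against 3.04% and 2.01% of all genes. Dnajb1, the co-chaperone of HSP70, had values of 216, 471, 366, 299 and 255 in HC libraries 1 to 5, against 222, 156, 153, 151 and 152 in STD libraries 1 to 5. The 3 highest values were those of HC libraries 2, 3 and 4, HC library 1 was below STD library 1, and the log2 fold change was 0.90 ± 0.19 (adjusted p = 0.654). Hspa1b, an inducible HSP70 gene picked with its values in view, had values of 1058, 9392, 9957, 6252 and 1883 in HC soleus, against 1887, 1284, 1299, 709 and 4933 in STD soleus, so STD library 5 also stood above the other STD libraries (1.34 ± 0.64, adjusted p = 0.979). Hspa1b has a near-identical copy, Hspa1a, and the split of reads between them is uncertain. The constitutive small heat shock proteins of muscle, Hspb7 and Cryab, were abundant and close in the group means (0.09 ± 0.10 and 0.16 ± 0.13). Herpud1, which takes part in clearing misfolded proteins from the endoplasmic reticulum, was the 1 chaperone-list gene with a lower mean at an unadjusted p under 0.05, with values of 1310, 1274, 1247, 1299 and 1111 in HC soleus, against 1453, 1657, 1628, 1353 and 1540 in STD soleus. All 5 HC values of Herpud1 were below all STD values (-0.29 ± 0.08, adjusted p = 0.746).

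The mean log2 level of the list, set against the mean of the STD libraries, shows the division by library. For immediate early genes it was 0.09, 0.81, 0.45, 0.70 and 0.17 in HC libraries 1 to 5, against -0.09, 0.00, -0.11, -0.16 and 0.36 in STD libraries 1 to 5. For chaperones it was 0.03, 0.64, 0.52, 0.45 and -0.12 in HC libraries 1 to 5, against 0.03, -0.04, -0.12, -0.29 and 0.42 in STD libraries 1 to 5. HC libraries 2, 3 and 4 were the highest for both lists, followed by STD library 5, and they were also the 3 libraries with the least liver RNA, with relative levels of the liver genes of -2.96, -2.60 and -3.30. The part of the liver RNA in this split was not tested.

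**Figure D4:**
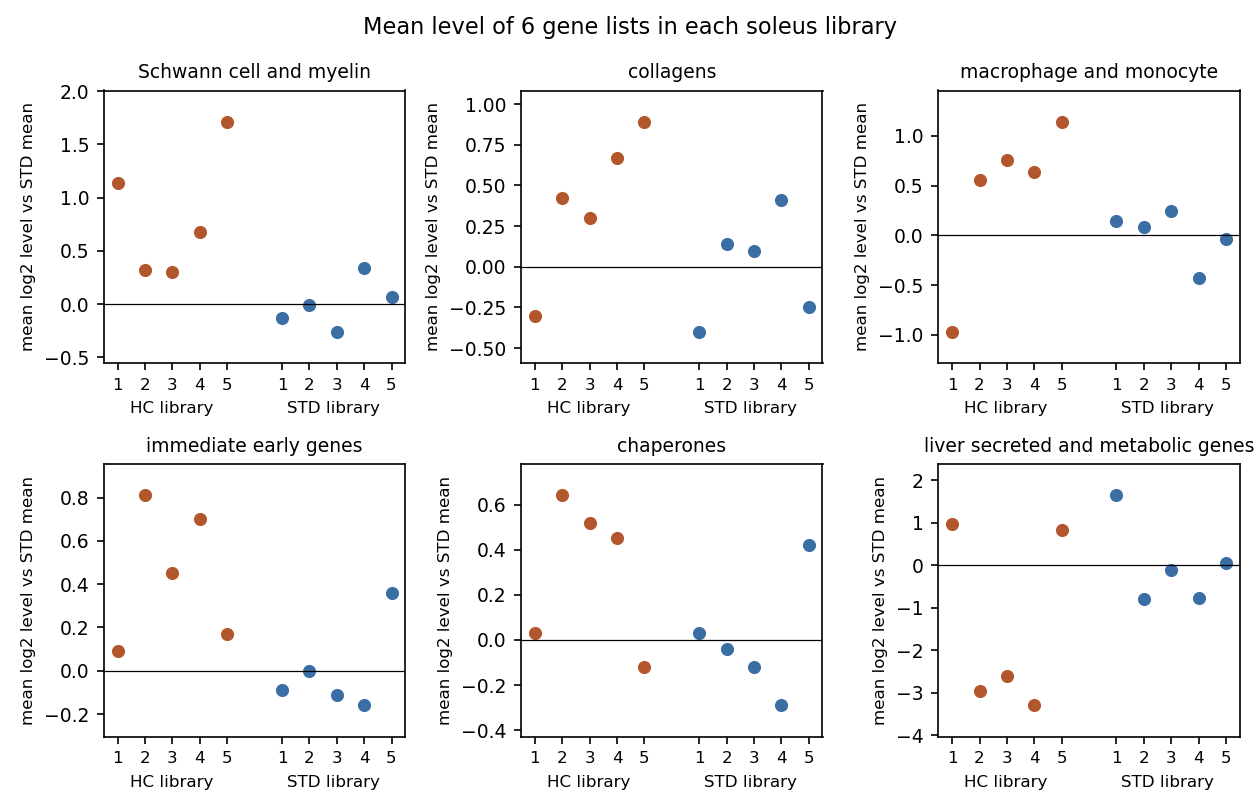
Mean log2 level (y axis, relative to the mean of the STD libraries) of the tested members of 6 gene lists in each soleus library (x axis, HC libraries left and STD libraries right), 1 point per library. Myelin genes are highest in HC libraries 5 and 1 (1.71 and 1.14), immediate early genes in HC libraries 2 and 4 (0.81 and 0.70), and liver genes are lowest in HC libraries 2 to 4.

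Immune cell markers were low and uneven. Of 18 macrophage and monocyte genes tested 17 had a higher mean in HC soleus (median log2 fold change 0.48). Of the 17, 1 had an unadjusted p under 0.05, against 3.04% of all genes. This was Tyrobp, an adaptor of immune receptors (0.85 ± 0.38, adjusted p = 0.972). The summed level of the list was 448, 1307, 1494, 1343 and 1948 in HC libraries 1 to 5, against 996, 1016, 1023, 645 and 825 in STD libraries 1 to 5. HC library 1 was the lowest of all 10 and the other 4 HC libraries were the highest. Cd163, a scavenger receptor of resident macrophages, had values of 13.5, 44.2, 77.5, 67.8 and 84.6 in HC soleus, against 37.7, 20.2, 25.8, 26 and 37.8 in STD soleus (0.74 ± 0.42, adjusted p = 0.99). The abundant members Lyz2 and Csf1r, a lysozyme and the receptor for the growth factor CSF1, had 0.28 ± 0.36 (adjusted p = 0.999) and 0.49 ± 0.40 (adjusted p = 0.999). With HC library 2 left out, 0 of the genes had an unadjusted p under 0.05 in the limma fit (3.75% of all genes), and with HC library 1 left out 14 had (12.9% of all genes). The median was lowest without HC library 5 (0.27) and highest without HC library 1 (0.76). Antigen presentation, mast cell and lymphocyte genes were higher in the mean in 9 of 9 cases tested (median 0.61). Of the 9, 1 had an unadjusted p under 0.05, against 3.04% of all genes. None of the 14 neutrophil genes reached the limit for a test.

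No difference in the RNA of the target of HC was detected. Acly (chromosome 11, 100476353 to 100528000) had values of 209.9, 229, 232, 262 and 284 in HC libraries 1 to 5, against 233, 267, 243, 261 and 234 in STD libraries 1 to 5. The means were 243 ± 29.2 in HC soleus and 248 ± 15.6 in STD soleus (SD, n = 5 each), and the 95% interval of the log2 fold change ran from -0.24 to 0.17 (adjusted p = 0.999). Of 19 genes that supply or use citrate and cytosolic acetyl-CoA, 15 had a slightly lower mean (median -0.04). Pcx, pyruvate carboxylase, which refills the citrate cycle with oxaloacetate, had values of 505, 448, 498, 485 and 515 in HC soleus, against 640.3, 519, 579, 573 and 662 in STD soleus. All HC values of Pcx were below all STD values, with a log2 fold change of -0.28 ± 0.08 (adjusted p = 0.746). Idh1, the cytosolic isocitrate dehydrogenase, had -0.23 ± 0.11 (adjusted p = 0.979), and Idh2, its mitochondrial counterpart, had 0.01 ± 0.12.

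Rimklb (chromosome 6, 122447296 to 122498761), which encodes an enzyme that joins citrate or N-acetylaspartate to glutamate, was below the limit for a test, with values of 5.4, 4.11, 3.88, 7.33 and 9.39 in HC libraries 1 to 5, against 0, 0, 0, 2.07 and 0 in STD libraries 1 to 5. A value near 1 is worth about 1 read, so the HC libraries held about 4 to 10 reads each and 4 STD libraries were listed at 0. The groups did not overlap. With no limit on low values, 17580 genes were tested and Rimklb had the smallest p, with a log2 fold change of 2.43 ± 0.38 on the log2(value + 1) scale (limma adjusted p = 0.398). That fold change depends on the 1 added to each value. Of the other genes around citrylglutamate, Nat8l, which makes N-acetylaspartate, had a lower mean (-0.70 ± 0.30, adjusted p = 0.972), with 7.1 in HC library 2 well below the other HC values (21.9 to 25.2). Slc17a5, a lysosomal transporter, and Aspa, which splits N-acetylaspartate, had 0.17 ± 0.12 (adjusted p = 0.994) and -0.09 ± 0.16 (adjusted p = 0.999). Rimkla, the related ligase, was at or below 4.48 in every HC library and 2.07 in every STD library.

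Gvin1 (chromosome 7, 106156556 to 106215326), an interferon-inducible large GTPase, had values of 0, 0, 91.7, 538 and 0 in HC libraries 1 to 5, against 0, 0, 0, 0 and 0 in STD libraries 1 to 5. It was thus read in HC libraries 3 and 4 only, and its groups overlapped at 0 (adjusted p = 0.935 with no limit on low values). The neighbouring gene model Gm4070 (chromosome 7, 105895139 to 105953967) had values of 443, 560.3, 548, 38.4 and 491 in HC libraries 1 to 5, against 496, 441, 499.5, 645 and 406 in STD libraries 1 to 5. Of the distinct 50-base stretches of the annotated Gvin1 transcripts, 98.3% also occur in Gm4070 transcripts (8855 of 9005), so that reads of one cannot be told from reads of the other along nearly the whole length. The library with the highest Gvin1, HC library 4, had the lowest Gm4070. Summed over both genes the values were 443, 560.3, 639.9, 576 and 491 in HC libraries 1 to 5, against 496, 441, 499.5, 645 and 406 in STD libraries 1 to 5, and the groups overlapped over nearly their whole range. The value of Gvin1 alone is therefore uncertain. Of 10157 genes with a value over 50 in some library, 35 were listed at 0 in another.

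**Figure D5:**
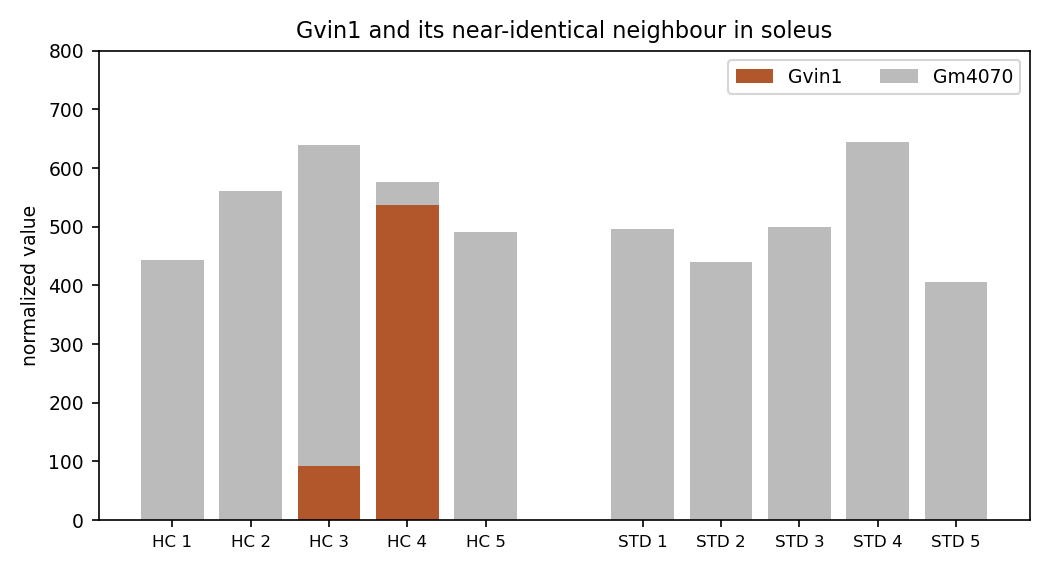
Normalized values (y axis, stacked from 0) of Gvin1 and its near-identical neighbour Gm4070 in the 5 HC libraries (left) and 5 STD libraries (right). Gvin1 is above 0 in HC libraries 3 and 4 (91.7 and 538), and the height of the whole bar runs from 443 to 639.9 in HC soleus and from 406 to 645 in STD soleus.

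Other interferon-responsive genes did not lean towards HC, with 11 of 30 higher in the mean (median -0.03). Of the 30, 2 had an unadjusted p under 0.05 with a higher mean, against 3.04% of all genes. Those were Stat2, a transcription factor of the type I response (0.42 ± 0.16, adjusted p = 0.915), and Ifit1, which binds foreign RNA (0.53 ± 0.20, adjusted p = 0.951). Both were higher with no overlap between the groups, as were 0.572% of all genes. Ifit1 had values of 25.4, 18.4, 33, 24.4 and 20.5 in HC soleus, against 17.9, 17.1, 15.9, 17.5 and 13.4 in STD soleus. The abundant members, the GTPase Gbp6 and the class I light chain B2m, had 0.00 ± 0.12 and 0.00 ± 0.12.

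Fibre type and energy metabolism genes were mostly close between the groups. Of 28 oxidative phosphorylation genes none had an unadjusted p under 0.05, and their log2 fold changes ran from -0.07 to 0.05. The medians were -0.02 for 25 genes of fatty acid oxidation, -0.06 for 21 of glycolysis and glycogen, 0.01 for 15 of fatty acid synthesis and 0.04 for 19 of cholesterol synthesis. At an unadjusted p under 0.05, 1 fatty acid synthesis gene was higher (Scd2, 0.81 ± 0.28, adjusted p = 0.886) and 1 lower (Dgat2, -0.27 ± 0.08, adjusted p = 0.746). In cholesterol synthesis 2 were higher (Nsdhl and Idi1, 0.44 ± 0.16 and 0.31 ± 0.11) and 1 lower (Lss, -0.53 ± 0.15), against 3.04% and 2.01% of all genes. The slow fibre list had a median of 0.00 over 15 genes and the fast fibre list -0.04 over 16. Casq2, the calcium-binding protein of the slow fibre reticulum, had a higher mean (0.26 ± 0.09, adjusted p = 0.896), while the slow calcium pump Atp2a2 had -0.14 ± 0.10 (adjusted p = 0.994). In fast fibres, the calcium pump Atp2a1 had -0.15 ± 0.10 (adjusted p = 0.994), the myosin Myh1 -0.32 ± 0.22 (adjusted p = 0.994) and the troponin Tnnt3 -0.02 ± 0.14. Myh7 and Myh2 had -0.05 ± 0.14 and 0.09 ± 0.13. All 10 tested genes of embryonic and regenerating fibres had a higher mean, by 0.02 to 0.24, with none at an unadjusted p under 0.05. The medians of the satellite cell list (17 genes) and of the neuromuscular junction and denervation list (19 genes) were 0.03 and 0.01.

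Genes of protein breakdown had mostly lower means in HC soleus, by small amounts. Of 25 genes of atrophy and FOXO signalling 19 had a lower mean (median -0.10), and 6 of these had an unadjusted p under 0.05, against 2.01% of all genes, with none higher. Fbxo31 (chromosome 8, 121549440 to 121578806), a ubiquitin ligase subunit, had values of 2729, 2633, 2666, 2264 and 2231 in HC libraries 1 to 5, against 3735, 3455, 3720, 2906 and 3055 in STD libraries 1 to 5. Every HC value was below every STD value, with a log2 fold change of -0.43 ± 0.09 (adjusted p = 0.654). Fbxo32, the muscle ubiquitin ligase atrogin-1, had values of 4893, 4816, 4139, 5309 and 6889 in HC soleus, against 6336, 7212, 7248, 8603 and 5888 in STD soleus and a log2 fold change of -0.45 ± 0.13 (adjusted p = 0.761), and the groups overlapped, with HC library 5 in the STD range. Ctsl, a lysosomal protease, and Ulk1, a kinase that starts autophagy, also had no overlap, with -0.23 ± 0.07 (adjusted p = 0.788) and -0.23 ± 0.07 (adjusted p = 0.833). The abundant autophagy genes Sqstm1 and Bnip3 had -0.10 ± 0.10 and -0.10 ± 0.08 (adjusted p = 0.999 and adjusted p = 0.999).

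Of 25 genes of insulin, Akt and mTOR signalling 16 had a lower mean (median -0.03). Akt2, the Akt kinase of the insulin response in muscle, had values of 2573, 2570, 2609, 2312 and 2343 in HC libraries 1 to 5, against 2970, 2890, 2868, 2722 and 2761 in STD libraries 1 to 5. The groups did not overlap, and the log2 fold change was -0.20 ± 0.06 (adjusted p = 0.833). The translation factors Eif4e and Eef2 had 0.16 ± 0.09 (adjusted p = 0.99) and -0.11 ± 0.08 (adjusted p = 0.994), and the insulin receptor substrate Irs2 had 0.38 ± 0.25 (adjusted p = 0.994).

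The genes with the smallest p values among those with no overlap also included some outside the lists. Tceal7 (chromosome X, 136214779 to 136226100), a small nuclear protein of the transcription elongation factor family, had the smallest p of all genes tested, with values of 153, 143, 177, 146 and 132 in HC libraries 1 to 5, against 109.8, 98, 81.4, 104 and 90.2 in STD libraries 1 to 5, a log2 fold change of 0.63 ± 0.12 and a limma adjusted p = 0.654. Siah2, a ubiquitin ligase of the hypoxia response, had values of 260.0, 296, 316, 303 and 219 in HC soleus, against 200.5, 201, 178, 186 and 193 in STD soleus (0.53 ± 0.11, adjusted p = 0.654). Slc36a2, a proton-coupled amino acid transporter, had the largest fold change of this group, at low values of 23.6, 12.3, 18.4, 20.8 and 26.7 in HC soleus, against 10.6, 5.25, 6.72, 10.4 and 5.56 in STD soleus (1.30 ± 0.29, adjusted p = 0.654). Galnt16, a glycosyltransferase, had 0.77 ± 0.15, Sertad1, a transcriptional regulator, 0.55 ± 0.12, Gpc3, a heparan sulfate proteoglycan, 0.58 ± 0.13, and Vwa1, a protein of basement membranes, 0.72 ± 0.16. Cadm3, an adhesion molecule of axons and glia, had 0.69 ± 0.16, with 159.8 in HC library 5 above the other HC values (89.5 to 107). Tiam1, an activator of Rac, had 0.60 ± 0.14 and Cnnm4, a magnesium transporter, 0.44 ± 0.10.

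On the lower side, Ssx2ip, a protein of centrosomes and cell junctions, had values of 474, 456, 469.7, 446 and 439.6 in HC soleus, against 541, 519, 529, 585 and 563 in STD soleus, with a log2 fold change of -0.26 ± 0.07 (adjusted p = 0.746). Dusp4, a phosphatase that switches off MAP kinases, had values of 34.1, 40.8, 48.5, 46.8 and 46.7 in HC soleus, against 51, 75.5, 69.1, 62.4 and 113 in STD soleus (-0.72 ± 0.20, adjusted p = 0.746). Poln, a DNA polymerase, had the largest fold change among them, at values under 20 in every library (-1.34 ± 0.40, adjusted p = 0.746). Mcph1, a chromosome condensation protein, had -0.46 ± 0.13, Cenpa, the centromeric histone, -0.56 ± 0.16, and Adcy2, an adenylyl cyclase, -0.27 ± 0.08. Dctn1, a subunit of the dynein activator, and Htatsf1, a splicing factor, differed by little, with -0.21 ± 0.06 and -0.20 ± 0.06.

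Of the 33 genes higher at the study's threshold, 18 were in no list. Hist2h3c1, a histone gene, had the largest fold change, with values of 51.7, 47.3, 37, 30.7 and 51.2 in HC soleus, against 0, 36.6, 32.4, 0 and 0 in STD soleus (3.39 ± 1.03, adjusted p = 0.788). It was listed at 0 in 3 STD libraries, and 34.7% of its distinct 50-base stretches also occur in its copy Hist2h3c2, so its values are uncertain. Pllp, a membrane protein of myelin, had values of 59.6, 19.5, 19.3, 15.3 and 75.4 in HC soleus, against 12.7, 10.5, 5.04, 14.5 and 7.78 in STD soleus, with no overlap between the groups (1.58 ± 0.45, adjusted p = 0.746). Nfasc, an adhesion protein of axons and glia, had values of 15.5, 21.6, 12.4, 24.5 and 43.4 in HC soleus, against 6.42, 13.8, 6.79, 8.34 and 4.45 in STD soleus and overlapped (1.41 ± 0.36, adjusted p = 0.746). Vat1l had its highest values in HC libraries 5 and 1 (81.1 and 51.7) and overlapped between the groups (1.54 ± 0.64, adjusted p = 0.972). Lep, the adipocyte hormone leptin, had values of 37.9, 69.6, 72.6, 185 and 35.1 in HC libraries 1 to 5, against 30.7, 18, 26.1, 6.21 and 48.9 in STD libraries 1 to 5. HC library 4 was far above the others, and the log2 fold change was 1.57 ± 0.52 (adjusted p = 0.846). The adipocyte list as a whole, Lep included, had 11 of 18 genes lower in the mean and a median of -0.09. At an unadjusted p under 0.05, 1 was higher (Lep) and 3 were lower, against 3.04% and 2.01% of all genes. In 1 of the list, Lipe, all HC values were below all STD values (-0.20 ± 0.07, adjusted p = 0.906), as in 0.53% of all genes. Among genes with a log2 fold change under 1, Mettl21c, a methyltransferase of muscle, had values of 1010, 1079, 815, 1044 and 461 in HC soleus, against 539, 468, 389.6, 442 and 496 in STD soleus, and HC library 5 alone lay within the STD range (0.86 ± 0.20, adjusted p = 0.654). Gas7, a protein of actin organisation, and Arid5a, an RNA-binding protein that stabilises inflammatory transcripts, had 0.82 ± 0.22 (adjusted p = 0.746) and 0.58 ± 0.15 (adjusted p = 0.746). Mettl21c, Gas7, Arid5a and the 4 genes in no list were picked with their values in view, as were Gm4070, Myh4, Nefl, Ulk1 and Cnp above.

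Most of the other lists had a median near that of all genes. The medians were 0.06 for 25 genes of integrins and fibre adhesion, -0.03 for 24 of the NRF2 and oxidative stress response, 0.05 for 19 of the circadian clock and 0.06 for 20 of endothelial and mural cells. Of the integrin and adhesion genes, 3 were higher and 1 lower at an unadjusted p under 0.05, against 3.04% and 2.01% of all genes. Of 26 genes of actin and small GTPases 22 had a higher mean (median 0.10), 4 of them with an unadjusted p under 0.05, against 3.04% of all genes. Erythrocyte and platelet genes were uneven between libraries of both groups, with 5 of 6 lower in the mean (median -0.27) and none at an unadjusted p under 0.05.

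In liver of mice on the same diets, fitted in its own table of 10 libraries, 0 of 11497 genes passed an adjusted p of 0.05 (limma), and 488 had an unadjusted p under 0.05 (4.24%). Of the 24 genes with no overlap in soleus that were named by their rank, 16 were tested in liver, 8 with the same sign as in soleus and 8 with the opposite sign. Among them, Cnnm4 had -0.31 ± 0.18 in liver (adjusted p = 0.995), against 0.44 ± 0.10 in soleus. Gpc3 had a higher mean in HC liver (1.13 ± 0.35, adjusted p = 0.995) and Sparc had 0.36 ± 0.19 (adjusted p = 0.995), against 0.58 ± 0.13 and 0.49 ± 0.11 in soleus. Mbp, Prx and Dhh were under the limit for a test in liver. Differences between the tissues were not tested.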

How the data were processed

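RNA was sequenced from soleus in 5 HC and 5 STD libraries. The labels name rRNA depletion with a directional kit and the methods name a stranded mRNA ligation kit, so the kit is uncertain. The authors trimmed reads (FASTQ toolkit 1.0.0) and aligned them to mm10 (RNAseq Alignment 2.0.2). Per the authors, library size was then corrected by the DESeq2 Illumina package 1.1 with its median of ratios. The deposited signal values are the result, 1 per gene and library. Only 14.5% to 47.5% of low values were within 0.01 of whole reads, so whole reads were not recovered and count tests were not run. Depth was estimated as the sum of values over the value of 1 read.

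Values were taken to log2 after adding 1, which makes fold changes of low genes smaller. Genes reaching 10 in 5 or more libraries were fitted with limma 3.58.1 in R 4.3.3 (moderated by a trend with the mean, no covariate), with p values adjusted by Benjamini and Hochberg over all 12067 genes. Libraries were grouped by their labels. The fit was tested on simulated data. Errors of fold changes are standard errors.

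Genes were named by a rule: Acly, Gvin1, Rimklb and Tgfb2, the 12 smallest p values with no overlap in each direction (without unnamed models), and from every list described the 2 smallest p values and the 2 most abundant members. Not every gene so chosen is reported here. Members and lists were chosen with the paper and earlier results of these data known, and the liver list after the data were seen. Gene positions are those of GENCODE M21 on GRCm38, and promoters those of RefSeq. Alternatives were pseudocounts of 0.5 and 5, other limits, 2 other normalizations, library weights, no trend, a replicate block and leaving out libraries. Injured gastrocnemius and AML12 cells were not used here.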

Additional observations from a re-analysis of the deposited data

Results flagged for a closer look

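In 18 of 178 groups of 5 libraries examined, the highest or lowest library stood apart from the other 4 by Dixon's criterion, and chance gives about 1 in 20 groups. Some of these genes (Gm4070, Myh4, Hspa1b, Alb and Prx) were picked with their values in view, so the count is not to be read against that share. In HC soleus, Gvin1 was 538 in library 4 (0 to 91.7 in the other 4) and Gm4070 38.4 in the same library (443 to 560.3). Lep was 185 in HC library 4 (35.1 to 72.6) and Cadm3 159.8 in HC library 5 (89.5 to 107). HC library 2 had 7.1 for Nat8l (21.9 to 25.2) and 12995 for Myh4 (396 to 1270), and HC library 1 had 107657 for Myh2 (145929 to 157614).

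In STD soleus, library 5 was the highest for Egr2 (27, against 9.85 to 14.1 in the other 4), Atf3 (3014, against 296 to 941), Hspa1b (4933, against 709 to 1887), Sqstm1 (10883, against 8024 to 8804) and Slc2a1 (615, against 170.2 to 213), and the lowest for Casq2 (2187, against 2602 to 2730). STD library 1 was the lowest for Sparc (1765, against 2172 to 2256) and the highest for Dnajb1 (222, against 151 to 156) and Alb (1087, against 179.6 to 339). STD library 4 was the highest for Prx (203, against 110.0 to 133) and for Rimklb (2.07, with the other 4 at 0).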

How the results depend on the processing

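Pseudocounts of 0.5 and 5, no limit on low values, a limit of 50, both other normalizations, no variance trend and the replicate block gave 0 genes past the adjusted threshold in either direction (limma, 431 to 891 genes at an unadjusted p under 0.05). With library weights 5 genes were higher, 2 of them list members (the liver list, added after the data were seen, is not counted). Without HC 1, HC 5 and STD 1, chosen after the data were seen, 21 were higher and 6 lower, 8 of them members of lists other than the liver list. With 1 library left out, 0 to 1 gene was higher (the 1 without HC library 5), 0 were lower and 0 were list members. The 39 genes past the study's threshold became 20 with a pseudocount of 5, 194 with no limit, 9 with a limit of 50, 122 with library weights, 76 without HC 1, HC 5 and STD 1, and 65 without HC 1 and STD 1, also chosen after the data were seen. With 1 library left out they were 27 (without HC library 4) to 97 (without HC library 1). The causes were not tested.

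The replicate numbers did not pair the libraries: same-numbered deviations correlated at 0.403, 0.07, 0.005, 0.028 and -0.112, and 1 of 5 numbers had its own partner as the best. With the replicate block 722 genes had an unadjusted p under 0.05, and 68 passed the study's threshold.

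Some small fold changes turned round. Bmpr2 was 0.10 with library weights, 0.05 without HC 1 and STD 1, and 0.12 without HC 1, HC 5 and STD 1. Idh2 was -0.02 with library weights, -0.02 without HC 1 and STD 1, and -0.05 without the 3 libraries with over 5000 of Myh4, which were also chosen after the data were seen. Without those 3, Timp3 was -0.13, Cryab -0.04 and Myh4 0.68. With quantile normalization Myh7 was 0.06 and Tnnt3 0.11. With 1 library left out the ranges were -0.09 to 0.02 for Acly, -0.08 to 0.18 for Timp3, -0.12 to 0.10 for Bmpr2, -0.08 to 0.09 for Idh2, -0.16 to 0.02 for Myh7, -0.12 to 0.05 for Tnnt3, -1.41 to 0.39 for Myh4 and -0.91 to 0.05 for Gm4070. Of 1026 gene results under alternatives that leave out no single library, 1001 kept their direction and side of the threshold. Count tests with edgeR or DESeq2 were not run because whole reads were not recovered. Genes under about 10 reads, such as Rimklb, are limited by depth.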
